A study of Homo sapiens with 4 samples.

Results

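The genes described here are 10 cytokine genes, IL6, IL11, LIF, IL1A, IL1B, IL7, IL15, IL18, IL32 and CSF1, chosen by symbol and matched by Ensembl identifier among the 58735 genes of the count files. All 10 were found, and 9 of them were abundant enough to test, among 15912 tested genes. These genes and the lists of other genes below were chosen with earlier results of these data known. Counts set beside shares of all tested genes are therefore description only. The study compared cells of the human line A549, derived from a lung adenocarcinoma and described in the labels as alveolar basal epithelium, carrying a hairpin against RALY (shRALY, genotype label RALY knockdown) with A549 cells carrying a control hairpin (shControl, genotype label WT). The RALY protein belongs to the hnRNP family and binds RNA in the nucleus. Every library came from cells infected with lentivirus and carries the time label day 2, and polyadenylated RNA was sequenced from 2 libraries per group. The labels give neither the number nor the sequence of the hairpins, and do not say that the replicates were separate cultures, so each p-value reflects only library-to-library spread, which may be technical. No uninfected cells were analysed here, so an effect of infection shared by both groups would not be seen.

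Cytokines are secreted proteins that cells use to signal inflammation and tissue damage. IL6, IL11 and LIF bind private receptors (IL6R, IL11RA, LIFR) and share the signal transducer IL6ST. IL1A and IL1B act through IL1R1 with IL1RAP, and IL18 through IL18R1 with IL18RAP. IL7 and IL15 act on lymphocytes through receptors that share the chain IL2RG, CSF1 sustains macrophages through CSF1R, and IL32 is an inflammatory cytokine of human cells. In airway epithelium such genes are known to be induced by infection and by NF-kB signalling, and many of their mRNAs are short-lived.

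Total counts per library ranged from 16745818 to 18632787, so that 3 counts corresponded to 0.163 to 0.183 CPM (a gene's counts relative to the library total, scaled by TMM factors). RALY itself stood at 40.8 and 41.5 CPM in shRALY and 123 and 133 CPM in shControl, which is 3.12-fold lower in shRALY (log2 -1.64, SE 0.11 on the log2 scale; adjusted p = 5.85e-11 by the quasi-likelihood F-test of edgeR with Benjamini-Hochberg correction). All 6 epithelial markers were detected in every library, with a summed level of 9277 to 9382 CPM in shRALY and 8148 to 8875 CPM in shControl. Nearly all of that sum came from the keratins KRT7, KRT8 and KRT18. EPCAM was scarce, at 3.53 and 2.93 CPM in shRALY and 3.065 and 2.29 CPM in shControl. Of the 6, KRT19, KRT7 and CDH1 were higher in shRALY by edgeR at log2 fold changes of 1.71, 0.25 and 0.47. None was lower, and DESeq2 gave 2 higher and 0 lower. By edgeR, 20.6% of all tested genes were higher and 20.4% lower. Of 14 immune cell markers, 6 or 9 were at 0 in each library, CD3D, CD3E, MS4A1, LYZ and FCGR3A in all 4. Counting could be incomplete for LYZ, with 34.0% of its exonic bases under an opposite-strand gene, and for FCGR3A, KRT8 and KRT18, which share 30.1%, 22.1% and 21.7% of their 50-base words with other genes. The summed level of the 14 immune markers was 12.0 to 14.7 CPM in shRALY and 14.5 to 15.5 CPM in shControl, mostly from CD14, ITGAM and CORO1A. By edgeR none of the 3 immune markers tested passed in either direction (0 also by DESeq2, and 0 with an unadjusted p below 0.05). Fibroblast markers summed to 15.1 and 17.5 CPM in shRALY and 20.7 and 19.5 CPM in shControl, and endothelial markers to under 1 CPM in every library. The part of these markers in the results was not tested. In bulk RNA, fewer cells making a transcript and less transcript per cell cannot be told apart.

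Of the 10 cytokine genes, 6 were higher in shRALY and none lower at an edgeR adjusted p under 0.05, 3 were tested without passing and IL1B was too scarce to test. Over all tested genes 41.0% passed in either direction, 20.6% higher and 20.4% lower. DESeq2 gave the same counts of 6 and 0 for the cytokines, as did an unadjusted p below 0.05 in edgeR. The higher genes were IL6, IL1A, IL32, IL15, CSF1 and LIF, and 3 of them, IL6, IL1A and IL32, were higher by 2-fold or more, against 6.99% of all tested genes. In 7 of the 9 tested cytokines the libraries of the groups did not overlap, against 69.7% of all tested genes. The median log2 fold change was 0.87 over the 9 tested cytokines and -0.01 over all tested genes. IL6 passed the filter on low counts through the shRALY libraries alone, and IL1A through both shRALY libraries and 1 shControl library, so for IL6 a tested difference had to be upward, and the counts and the median above describe the 9 genes that passed the filter, not all 10.

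**Figure D1:**
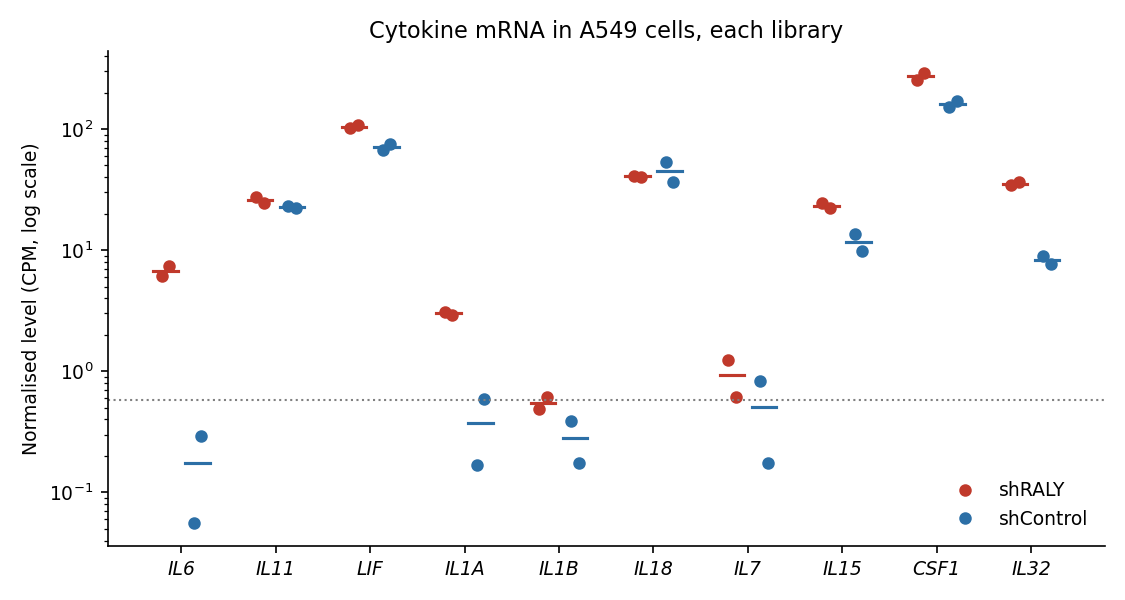
Normalised level of each cytokine gene in CPM on a log axis, with 1 point per library, shRALY in red and shControl in blue, and a line at each group mean (n = 2). The dotted line at 0.581 CPM is the level that the filter on low counts asks of 2 libraries; IL6 lies above it only in shRALY, and the points of IL18 and IL7 overlap between groups.

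Among the cytokines that share IL6ST, IL6 had by far the largest change, LIF a smaller one and IL11 none that passed. IL6 (ENSG00000136244, chromosome 7, 22725884 to 22732002, plus strand), the main inducer of the acute phase response, had 112 and 122 counts in the shRALY libraries and 1 and 5 counts in the shControl libraries. That is 6.08 and 7.45 CPM in shRALY, against 0.0557 and 0.293 CPM in shControl. The gene was thus near the limit of detection in both control libraries and clearly present in both shRALY libraries. The fitted log2 fold change was 5.24 (SE 0.45; edgeR adjusted p = 2.56e-09), or 37.8-fold, and the ratio of summed counts was 37.8 with an exact 95% interval of 17.1 to 104 that covers counting error only. With so few control counts the size rests on single libraries, and the log2 fold change was 4.49 without shControl replicate 1 and 6.76 without shControl replicate 2. Genes on the opposite strand cover 20.7% of the exonic bases of IL6. Of these, AC073072.1 had no counts in any library and STEAP1B 1 count in all. The strand setting is not given, so those counts cannot show whether IL6 was fully counted in the shared bases.

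The promoter of IL6 is shown because IL6 had the largest fold change of the 9 tested members. The window runs from 250 bases before to 50 bases after the RefSeq start site, at chr7:22726950-22727249 on the plus strand of GRCh38.p14, and capitals mark a match to the NF-kB consensus motif.
IL6: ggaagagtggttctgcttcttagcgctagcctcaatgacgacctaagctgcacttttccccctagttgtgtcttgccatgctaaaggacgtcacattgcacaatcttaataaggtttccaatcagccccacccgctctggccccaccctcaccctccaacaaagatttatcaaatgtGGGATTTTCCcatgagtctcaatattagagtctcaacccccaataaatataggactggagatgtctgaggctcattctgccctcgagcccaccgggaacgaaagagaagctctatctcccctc
The match GGGATTTTCC begins at position -73 relative to the start site. Of the 35116 RefSeq promoter windows of the same length, 5.91% held a match to that consensus on either strand. The looser pattern of GGG, any 5 bases and CC, which contains the consensus, was in 58.7% of windows.

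LIF (ENSG00000128342, chromosome 22, 30240447 to 30246851, minus strand) maintains stem cells in the mouse and is an inflammatory signal in epithelia. It stood at 102 and 107 CPM in shRALY and 66.6 and 75.1 CPM in shControl. Both shRALY libraries lay above both control libraries. The log2 fold change was 0.56 (SE 0.11; edgeR adjusted p = 3.26e-04), or 1.48-fold.

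IL11 (ENSG00000095752, chromosome 19, 55364389 to 55370463, minus strand), a cytokine linked to fibrosis and to TGF-beta signalling, had 27.5 and 24.7 CPM in shRALY and 23.0 and 22.3 CPM in shControl. The libraries did not overlap, but the gap between groups was small. The log2 fold change of 0.20 (SE 0.14; 95% interval -0.09 to 0.49) did not pass (edgeR adjusted p = 0.265), and the interval leaves out a change of 2-fold in either direction.

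The promoters of IL11 and IL1A are set side by side because both hold the AP-1 motif TGANTCA, in capitals, while IL1A was called and IL11 was not. The IL11 window is chr19:55370414-55370713 and the IL1A window chr2:112784444-112784743, both on the minus strand of GRCh38.p14.
IL11: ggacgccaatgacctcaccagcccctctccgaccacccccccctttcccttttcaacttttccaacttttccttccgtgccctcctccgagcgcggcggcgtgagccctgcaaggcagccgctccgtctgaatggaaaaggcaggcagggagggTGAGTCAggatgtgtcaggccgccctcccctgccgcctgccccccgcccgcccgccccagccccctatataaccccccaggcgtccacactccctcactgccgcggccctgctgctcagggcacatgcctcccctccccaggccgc
IL1A: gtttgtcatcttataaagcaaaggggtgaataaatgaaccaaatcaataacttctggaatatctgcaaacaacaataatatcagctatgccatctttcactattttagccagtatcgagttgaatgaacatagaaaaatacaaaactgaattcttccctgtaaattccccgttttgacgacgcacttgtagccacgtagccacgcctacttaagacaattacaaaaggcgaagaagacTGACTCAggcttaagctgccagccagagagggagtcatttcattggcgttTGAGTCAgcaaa
IL11 held the motif once, at position -96 relative to its start site. IL1A held it at position -12 and again at position 39 of the transcript, and a second RefSeq window of IL1A, from a start site further downstream, holds the same pair. Of all windows 7.71% held TGANTCA.

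The IL-1 family genes split. IL1A (ENSG00000115008, chromosome 2, 112773915 to 112784590, minus strand), whose product is active as a precursor and works as an alarm signal from damaged cells, had 57 and 48 counts in shRALY and 3 and 10 counts in shControl. In CPM that is 3.10 and 2.93 in shRALY and 0.167 and 0.586 in shControl. The shRALY libraries were close to each other, while the control libraries differed several-fold at very low counts. The log2 fold change was 2.99 (SE 0.50; edgeR adjusted p = 4.13e-05), or 7.96-fold, with 2.34 when shControl replicate 1 was left out and 4.13 when shControl replicate 2 was left out.

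IL1B (ENSG00000125538, chromosome 2, 112829751 to 112836903, minus strand), the neighbour of IL1A and the classical secreted form of the family, had only 9 and 10 counts in shRALY and 7 and 3 in shControl. These are levels of 0.489 and 0.611 CPM in shRALY and 0.390 and 0.176 CPM in shControl. Without the filter on low counts its log2 fold change was 0.93 (SE 0.86; edgeR adjusted p = 0.569), and a change of this size was not detectable at this depth.

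IL18 (ENSG00000150782, chromosome 11, 112143251 to 112164117, minus strand) is stored as a precursor in epithelial cells and released after cleavage by CASP1. It stood at 41.2 and 39.9 CPM in shRALY and 53.6 and 36.8 CPM in shControl. The control libraries enclosed the shRALY libraries. The log2 fold change of -0.16 (SE 0.14; 95% interval -0.46 to 0.14) did not pass (edgeR adjusted p = 0.412). The result turned on the control libraries, since leaving out shControl replicate 2 made IL18 lower (log2 fold change -0.39, edgeR adjusted p = 0.00322), and it had a log2 fold change of 0.14 without shControl replicate 1 (edgeR adjusted p = 0.376).

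IL15 changed among the lymphocyte growth factors, and IL7 gave no call. IL15 (ENSG00000164136, chromosome 4, 141636599 to 141733987, plus strand), which supports natural killer cells and memory T cells, had 24.3 and 22.1 CPM in shRALY and 13.7 and 9.85 CPM in shControl. Both shRALY libraries were above both control libraries, and the controls were the more scattered pair. The log2 fold change was 0.98 (SE 0.17; edgeR adjusted p = 6.86e-05), or 1.97-fold. IL7 (ENSG00000104432, chromosome 8, 78675743 to 78805523, minus strand), a survival factor for T cells, had 23 and 10 counts in shRALY and 15 and 3 counts in shControl, or 1.25 and 0.611 CPM against 0.836 and 0.176 CPM. The groups overlapped, and the log2 fold change of 0.87 (SE 0.66; 95% interval -0.50 to 2.23) did not pass (edgeR adjusted p = 0.316). Its size turned on single libraries, at 2.36 without shControl replicate 1, 0.18 without shControl replicate 2 and 0.26 without shRALY replicate 1.

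CSF1 and IL32 were higher in shRALY. CSF1 (ENSG00000184371, chromosome 1, 109910242 to 109930992, plus strand), the growth factor of macrophages, had 255 and 289 CPM in shRALY and 151 and 171 CPM in shControl. The groups did not overlap, and the log2 fold change was 0.76 (SE 0.11; edgeR adjusted p = 6.21e-06), or 1.69-fold. IL32 (ENSG00000008517, chromosome 16, 3065297 to 3082192, plus strand) had 34.4 and 36.2 CPM in shRALY and 9.03 and 7.68 CPM in shControl. Its libraries were close within each group and far apart between groups. The log2 fold change was 2.08 (SE 0.16; edgeR adjusted p = 2.39e-10), or 4.22-fold, the smallest adjusted p of the 10 genes.

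The IL32 promoter is shown because it is, with that of IL6, the only one among the members' windows that matched the NF-kB consensus. The window is chr16:3065153-3065452 on the plus strand of GRCh38.p14, and capitals mark 2 overlapping matches.
IL32: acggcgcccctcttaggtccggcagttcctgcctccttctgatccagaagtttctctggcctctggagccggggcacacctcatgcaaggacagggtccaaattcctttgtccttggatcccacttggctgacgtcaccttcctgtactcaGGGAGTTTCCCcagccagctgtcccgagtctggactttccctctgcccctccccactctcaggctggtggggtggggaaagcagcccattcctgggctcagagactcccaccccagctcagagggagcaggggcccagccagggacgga
The matches GGGAGTTTCC and, shifted by 1 base and read on the other strand, GGAGTTTCCC begin at positions -99 and -98 relative to the start site. A second IL32 window, from a start site further downstream, held no match to the consensus. RefSeq windows were matched for 5 of the 10 genes, IL6, IL11, IL1A, IL1B and IL32. None of these held the interferon response pattern of GAAA, any 2 bases and GAAA, found in 3.57% of all windows, and IL1B alone held the STAT pattern TTCNNNGAA, found in 7.66%.

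**Figure D2:**
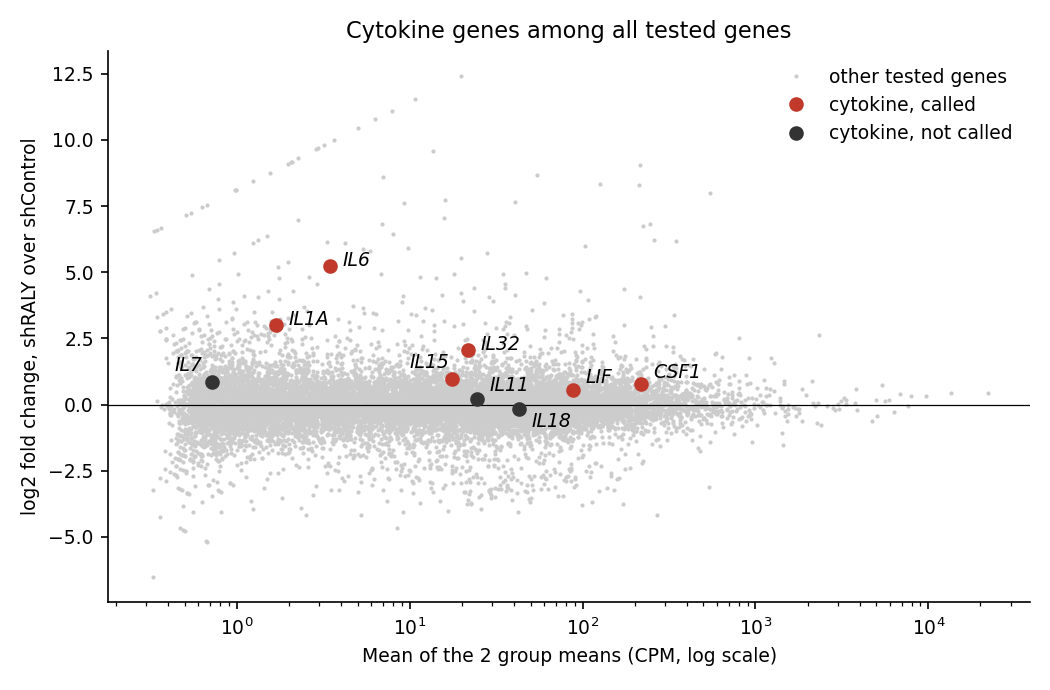
Log2 fold change (shRALY over shControl) of each of the 15912 tested genes against the mean of its group means in CPM on a log axis. Red points are cytokine genes that passed the edgeR test and dark points those that did not; IL6, at a log2 fold change of 5.24, lies far above the bulk of genes of similar level, and IL11 and IL18 lie near 0. The diagonal streak of grey points at the upper left is made of genes with no shControl counts.

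Levels of different genes were compared per length, as CPM per kb of annotated exon. In shRALY the order was CSF1 (50.2 ± 4.35 CPM per kb), LIF (26.3 ± 0.98), IL18 (15.4 ± 0.34), IL32 (11.0 ± 0.39), IL11 (9.77 ± 0.76), IL6 (3.27 ± 0.47), IL15 (2.95 ± 0.20), IL1A (1.42 ± 0.06), IL7 (0.27 ± 0.13) and IL1B (0.18 ± 0.03), as mean ± SD with n = 2. In shRALY, neighbours in this order overlapped between libraries for IL6 with IL15 and for IL7 with IL1B. In shControl the order of the same level, again mean ± SD in CPM per kb with n = 2, was CSF1 (29.7 ± 2.67), LIF (17.8 ± 1.51), IL18 (17.2 ± 4.52), IL11 (8.49 ± 0.18), IL32 (2.60 ± 0.30), IL15 (1.495 ± 0.34), IL1A (0.18 ± 0.14), IL7 (0.15 ± 0.14), IL1B (0.09 ± 0.05) and IL6 (0.08 ± 0.08). LIF and IL18 overlapped there, as did each neighbouring pair among the last 4.

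IL6 thus stood sixth in shRALY and last in shControl, and CSF1 and LIF stood first and second in both groups. CSF1 made up 40.1% and 42.9% of the summed per-length level of the 10 genes in the shRALY libraries and 35.4% and 41.0% in the shControl libraries. IL18 made up 13.3% and 12.2% in shRALY and 26.0% and 18.2% in shControl. IL6 made up 2.50% and 2.90% in shRALY and 0.0343% and 0.184% in shControl. The order depends on the length used. Per kb of the longest transcript, IL32 reached 25.6 and IL18 23.9 in shRALY, close to LIF at 26.3. By that length in shControl, IL18 at 26.6 lay above LIF at 17.8, and IL7 at 0.244 lay above IL1A at 0.177.

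**Figure D3:**
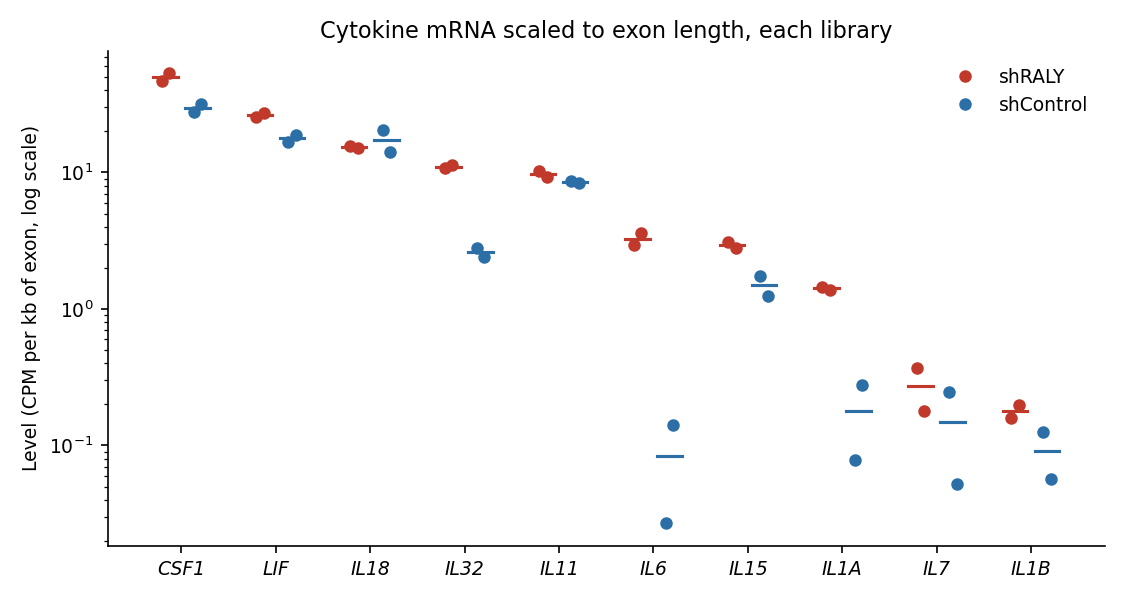
Level of each cytokine gene in CPM per kb of exon on a log axis, ordered by the shRALY mean, with 1 point per library, shRALY in red and shControl in blue, and a line at each group mean (n = 2). CSF1 and LIF lead in both groups, and IL6 has the widest gap between groups.

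AU-rich words in the 3′ untranslated region (3′ UTR) are a known mark of short-lived cytokine mRNAs, bound by proteins that speed decay or stabilise the message. The density of the word ATTTA was 14.0 per kb in the 429-base 3′ UTR of IL6, a density reached by 0.544% of the 19126 protein-coding genes with an annotated 3′ UTR. IL1B had 9.84 per kb (1.36% of genes reach it), IL11 5.56 (6.89%), IL1A 4.34 (12.5%), IL7 4.25 (13.0%), IL15 3.51 (19.8%), LIF 2.18 (38.0%) and CSF1 1.86 (43.4%). IL18 and IL32 had no ATTTA at all, and 67.4% of all genes have at least 1. The median over all genes was 1.48 per kb. Among the 10 genes the highest density was thus that of IL6. A relation of density to fold change was not tested.

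The longer word TTATTTATT occurred in the 3′ UTRs of 3 of the 10 genes, IL11, IL1B and LIF, against 8.16% of all genes. Its sites in these genes are shown with the word in capitals, merged where copies overlap. The base of the 3′ UTR at which the capitals begin is given.
IL11 from base 42: cagatcTTATTTATTTATTTATTtcagta
IL11 from base 165: tttatacTTATTTATTtcaggag
IL11 from base 318: acatataTTATTTATTtaagcaa
IL11 from base 807: cagctaaTTATTTATTtcttttg
IL1B from base 348: tccctatTTATTTATTTATTtgtttgt
LIF from base 2675: cgggcccTTATTTATTatttaaa
LIF from base 3098: attatttTTATTTATTcaatgtc
IL11 held 6 copies, 3 of them in the first run, and LIF and IL1B held 2 each. Word counts describe the annotated transcripts and do not measure decay.

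Receptors were read as the receiving side of the same signals. Of 14 listed receptor genes, 9 could be tested, with 6 higher in shRALY and 0 lower by edgeR. The shares over all tested genes were 20.6% higher and 20.4% lower. DESeq2 gave 5 and 0, and an unadjusted p below 0.05 gave 7 and 0. The median log2 fold change was 0.56, against -0.01 over all tested genes. IL15RA, which presents IL15 to neighbouring cells, had 7.93 and 10.1 CPM in shRALY and 1.34 and 0.996 CPM in shControl (log2 2.93, SE 0.29; edgeR adjusted p = 1.91e-08). IL15 and its presenting receptor were thus both higher. Of the lymphocyte chains that receive it, IL2RB had 1 and 0 counts in shRALY and 0 in both shControl libraries. IL2RG was counted at 4 and 0 in shRALY and 3 and 0 in shControl, but AL590764.2 covers 50.8% of its exonic bases on the same strand, so its count is uncertain.

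IL1RAP, the accessory chain that IL1A and IL1B need, had 34.4 and 38.2 CPM in shRALY and 7.13 and 5.86 CPM in shControl (log2 2.48, SE 0.16; edgeR adjusted p = 2.51e-11). The binding chain IL1R1 changed less, with 84.6 and 97.6 CPM in shRALY and 66.6 and 67.2 CPM in shControl (log2 0.44, SE 0.11; edgeR adjusted p = 0.0032). The IL1R1 call was lost without shRALY replicate 2 (edgeR adjusted p = 0.193). IL18R1 had 3.04 and 3.91 CPM in shRALY and 2.01 and 0.703 CPM in shControl (log2 1.34, SE 0.39; edgeR adjusted p = 0.00838). That call was lost by DESeq2 (adjusted p = 0.0591), when shControl replicate 2 (edgeR adjusted p = 0.0949, log2 0.80) or shRALY replicate 2 (edgeR adjusted p = 0.0517) was left out, and the log2 fold change was 2.28 without shControl replicate 1. Its partner IL18RAP had 1 and 2 counts in shRALY and 0 in both shControl libraries.

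Of the receptors of the IL6 group, the shared transducer IL6ST had 299.6 and 330.3 CPM in shRALY and 230.3 and 197 CPM in shControl (log2 0.56, SE 0.11; edgeR adjusted p = 2.36e-04). LIFR had 37.1 and 47.9 CPM in shRALY and 28.0 and 23.6 CPM in shControl (log2 0.71, SE 0.14; edgeR adjusted p = 3.29e-04). Both genes were higher in every shRALY library than in any control library. IL6R had a log2 fold change of 0.38 (edgeR adjusted p = 0.0667). It passed with a filter of 10 CPM in 2 libraries (edgeR adjusted p = 0.0495) and with a replicate block (edgeR adjusted p = 0.0436). It did not pass by DESeq2 (adjusted p = 0.173), with library size alone (edgeR adjusted p = 0.116) or with no filter (edgeR adjusted p = 0.0986). IL11RA had a log2 fold change of 0.27 (edgeR adjusted p = 0.428), and IL7R of 0.48 at under 1 CPM in every library (edgeR adjusted p = 0.553). CSF1R, the receptor of CSF1, had 2 and 3 counts in shRALY and 1 and 0 in shControl.

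**Figure D4:**
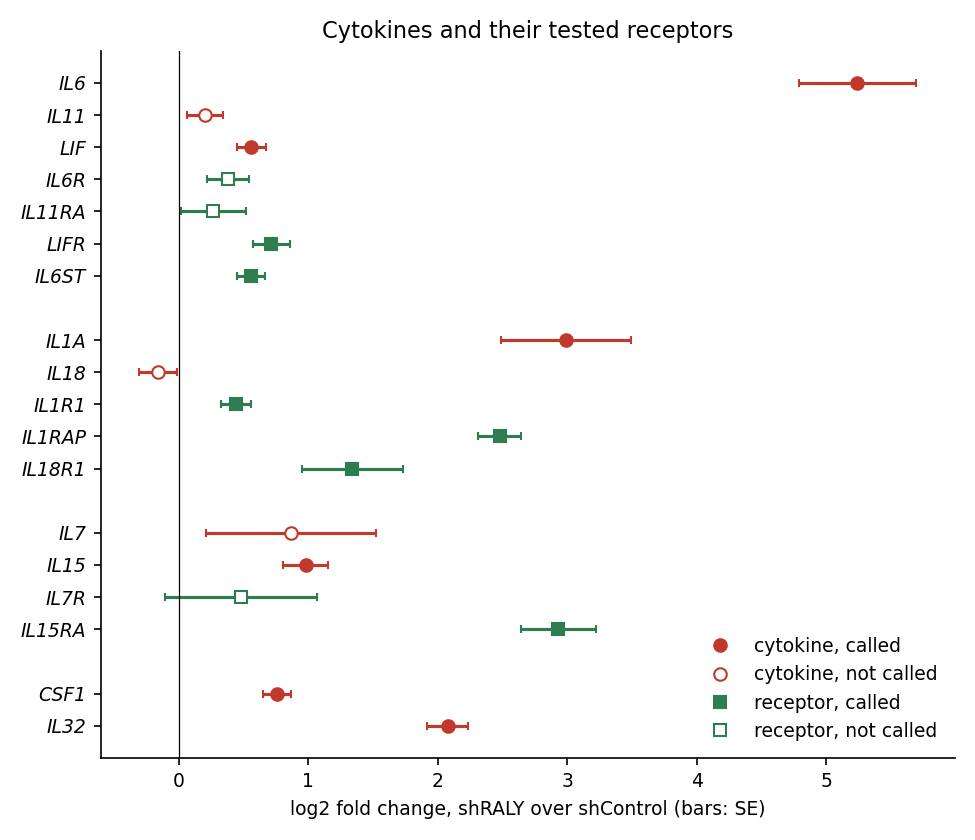
Log2 fold change (shRALY over shControl) with SE for the tested cytokines (circles) and tested receptors (squares), grouped as the IL6 group, the IL-1 family, the lymphocyte factors, and CSF1 with IL32. Filled symbols passed the edgeR test; IL15RA (2.93) and IL1RAP (2.48) have the largest receptor values, and IL18 alone lies below 0.

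Few inhibitors could be tested. Of 4 listed soluble or decoy inhibitors, IL18BP and SIGIRR were tested and neither passed by edgeR (0 higher and 0 lower, likewise by DESeq2 and with an unadjusted p below 0.05). Over all tested genes 20.6% were higher and 20.4% lower, so a count over so few genes says little about inhibitors as a group. IL18BP, which neutralises IL18, had 10.8 and 15.3 CPM in shRALY and 9.81 and 12.0 CPM in shControl. SIGIRR, an inhibitory receptor of the IL-1 family, had 33.1 and 29.5 CPM in shRALY and 26.6 and 29.9 CPM in shControl. IL1RN, the IL-1 receptor antagonist, had 12 and 2 counts in shRALY and none in shControl, and the decoy IL1R2 5 and 7 counts in shRALY and 1 and 2 in shControl, too few for the filter.

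Most family relatives of the 10 genes were not expressed at a level that could be tested. Of 22 relatives, 8 had no count in any library and 6 could be tested, with 1 higher and 1 lower by edgeR. The shares over all tested genes were 20.6% higher and 20.4% lower. DESeq2 gave 1 and 0, and an unadjusted p below 0.05 gave 1 and 1. The median log2 fold change was -0.19, against -0.01 over all tested genes. EBI3, a subunit shared by cytokines of the IL-12 family, had 9.40 and 10.9 CPM in shRALY and 3.01 and 3.87 CPM in shControl (log2 1.56, SE 0.23; edgeR adjusted p = 8.48e-06).

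Of 20 other cytokines, 8 could be tested, with 6 higher and 1 lower by edgeR, against 20.6% and 20.4% of all tested genes. DESeq2 gave 4 and 1, and an unadjusted p below 0.05 gave 6 and 1. The median log2 fold change was 1.90, against -0.01 over all tested genes. Of the 6 higher genes, 4 (TNFSF10, TNFSF13B, IL23A and LTB) passed the filter on low counts through shRALY alone, so they could be called only upward, and the count and the median describe the genes that passed that filter. TNFSF10, the death ligand TRAIL, had 18.8 and 19.7 CPM in shRALY and 0.334 and 0.293 CPM in shControl (log2 5.90, SE 0.30; edgeR adjusted p = 1.75e-13). TNFSF13B, the B cell survival factor BAFF, had 3.75 and 6.35 CPM in shRALY and 0.167 and 0.176 CPM in shControl (log2 4.82, SE 0.49; edgeR adjusted p = 3.46e-08). Both were far above their control libraries in each shRALY library. GDF15, a stress-induced cytokine, had 152 and 144 CPM in shRALY and 77.9 and 82.5 CPM in shControl (log2 0.89, SE 0.11; edgeR adjusted p = 6.61e-07). TNFSF15, another TNF family ligand, went the other way, with 12.9 and 13.1 CPM in shRALY and 32.9 and 31.4 CPM in shControl (log2 -1.31, SE 0.15; edgeR adjusted p = 1.52e-07). IL23A and IL12A, subunits of the IL-12 family named after their values were seen, had log2 fold changes of 4.12 and 1.35 (edgeR adjusted p = 3.09e-05 and 0.00725), and IL12A did not pass by DESeq2 (adjusted p = 0.0632) or without shRALY replicate 2 (edgeR adjusted p = 0.0589). The size for IL23A, which had 1 and 3 control counts, was 3.53 without shControl replicate 1 and 5.09 without shControl replicate 2. LTB, also named after its values were seen, had 11 and 12 counts in shRALY and 0 and 4 in shControl (log2 2.46, SE 0.93; edgeR adjusted p = 0.0375). The LTB call was lost with no filter (edgeR adjusted p = 0.0576), without shControl replicate 1 (log2 1.47) and without either shRALY library, and the log2 fold change was 6.56 without shControl replicate 2. TNF itself had 15 and 9 counts in shRALY and none in shControl and was too scarce to test.

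**Figure D5:**
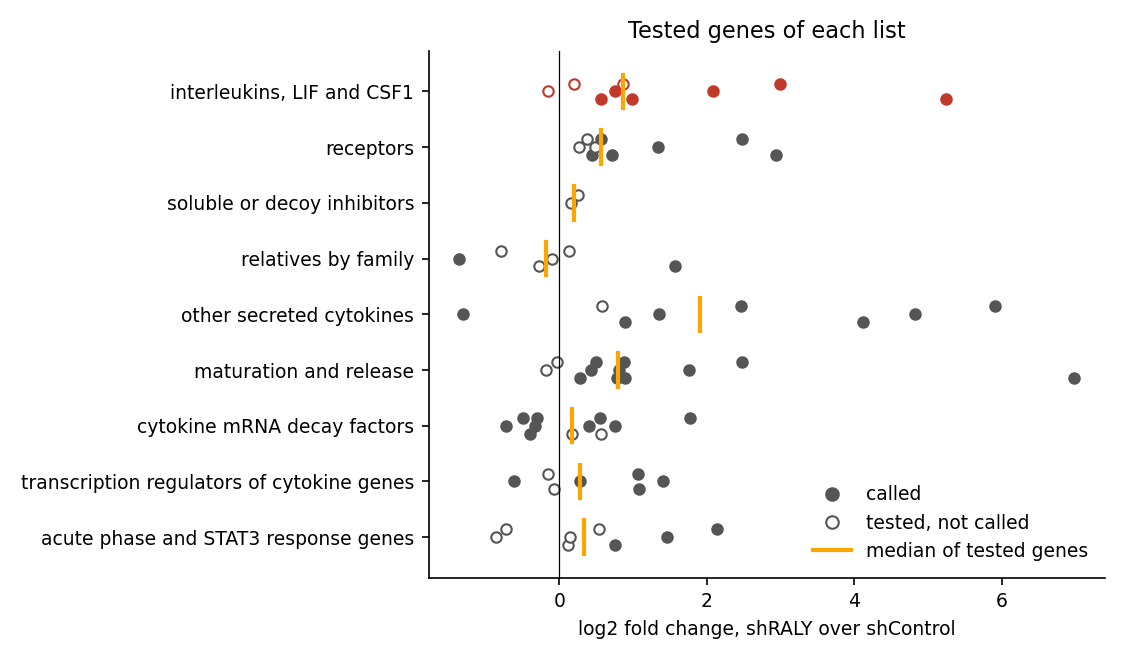
Log2 fold change (shRALY over shControl) of the tested genes of each list, with filled circles for genes that passed the edgeR test, open circles for those that did not, and an orange bar at the median of the tested genes. The cytokines described here are in red, with a median of 0.87; the mRNA decay factors lie on both sides of 0.

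Most tested genes listed for cytokine maturation and release were higher. Of 15 listed, 12 could be tested, with 10 higher and 0 lower by edgeR, against 20.6% higher and 20.4% lower over all tested genes. DESeq2 and an unadjusted p below 0.05 also gave 10 and 0. The median log2 fold change was 0.79, against -0.01 over all tested genes. IL1RAP, an accessory receptor chain, stands in this list as well as among the receptors. It is counted here among the tested and the higher genes and in the median. CASP1, the protease that cleaves the precursors of IL1B and IL18, had 74 and 82 counts in shRALY and 1 and 0 in shControl, a ratio of 151 with an exact 95% counting interval of 26.7 to 6004 (fitted log2 6.98; edgeR adjusted p = 9.39e-09). CASP1 passed the filter through shRALY alone, and its fitted log2 fold change was 9.28 without shControl replicate 1 and 6.18 without shControl replicate 2. Neither substrate was called, IL18 at a log2 fold change of -0.16 and IL1B untested. ADAM17, which sheds membrane-bound cytokines and receptors, had 152 and 155 CPM in shRALY and 88.2 and 90.1 CPM in shControl (log2 0.78, SE 0.11; edgeR adjusted p = 2.95e-06). CASP8 had 86.9 and 88.0 CPM in shRALY and 55.1 and 45.1 CPM in shControl (log2 0.80, SE 0.12; edgeR adjusted p = 9.77e-06). NLRP1, an inflammasome sensor named after its values were seen, had a log2 fold change of 1.76 (edgeR adjusted p = 1.75e-05). The sensors NLRP3 and AIM2 had 0 or 1 count in each library.

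Factors that control cytokine mRNA decay moved in both directions. All 11 were tested, with 4 higher and 5 lower by edgeR, against 20.6% higher and 20.4% lower over all tested genes. DESeq2 gave 4 and 4, and an unadjusted p below 0.05 gave 5 and 5. The median log2 fold change was 0.17, against -0.01 over all tested genes. ZFP36, which binds AU-rich words and speeds decay, had 54.5 and 64.8 CPM in shRALY and 17.1 and 17.8 CPM in shControl (log2 1.77, SE 0.13; edgeR adjusted p = 2.56e-10). ZC3H12A, an endonuclease that cleaves IL6 mRNA, had 23.0 and 26.9 CPM in shRALY and 13.5 and 16.2 CPM in shControl (log2 0.75, SE 0.16; edgeR adjusted p = 5.13e-04). ZFP36L2, a relative of ZFP36, had a log2 fold change of 0.55 (edgeR adjusted p = 5.65e-04), lost without shRALY replicate 2 (edgeR adjusted p = 0.0764). KHSRP, another AU-rich binding protein that promotes decay, had 142 and 145 CPM in shRALY and 204 and 270 CPM in shControl (log2 -0.73, SE 0.12; edgeR adjusted p = 3.62e-05). The other lower genes, named after their values were seen, were HNRNPD, RC3H1, RC3H2 and ELAVL1, at log2 fold changes of -0.50, -0.31, -0.40 and -0.33. Each of these 4 calls was lost without shRALY replicate 2 (edgeR adjusted p = 0.0584, 0.254, 0.115 and 0.227), and all but that of HNRNPD also without shRALY replicate 1 (edgeR adjusted p = 0.367, 0.177 and 0.249).

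Of 8 listed transcription regulators of cytokine genes, 7 could be tested, with 4 higher and 1 lower by edgeR. The shares over all tested genes were 20.6% higher and 20.4% lower. DESeq2 gave 4 and 0, and an unadjusted p below 0.05 gave 4 and 1. The median log2 fold change was 0.28, against -0.01 over all tested genes. CEBPB, an activator of IL6 transcription, had 416 and 425 CPM in shRALY and 199 and 199.7 CPM in shControl (log2 1.08, SE 0.10; edgeR adjusted p = 1.03e-08). CEBPD had 97.8 and 97.5 CPM in shRALY and 43.4 and 50.3 CPM in shControl (log2 1.06, SE 0.12; edgeR adjusted p = 1.21e-07). Both are transcription factors of the C/EBP family, and neither had overlapping groups. NFKBIZ, a nuclear cofactor of NF-kB, had 41.1 and 47.0 CPM in shRALY and 17.4 and 15.8 CPM in shControl (log2 1.41, SE 0.14; edgeR adjusted p = 2.25e-08). BCL3 had a log2 fold change of 0.28 (edgeR adjusted p = 0.046), which 5 of the alternatives left at an adjusted p above 0.05. The lower gene, CEBPA, named after its values were seen, had 4.62 and 4.82 CPM in shRALY and 5.80 and 8.67 CPM in shControl (log2 -0.61, SE 0.24; edgeR adjusted p = 0.0462). The CEBPA call was lost by DESeq2 (adjusted p = 0.201) and without shControl replicate 2 (log2 -0.28, edgeR adjusted p = 0.452) or either shRALY library, and opposite-strand genes cover 43.4% of its exonic bases.

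Acute phase and STAT3 response genes are known to respond to IL6 in liver. Of 16 listed, 8 could be tested, and 3 were higher and 0 lower by edgeR. DESeq2 gave 2 and 0, and an unadjusted p below 0.05 gave 3 and 1. Over all tested genes 41.0% passed in either direction, with 20.6% of all tested genes higher and 20.4% lower. The median log2 fold change was 0.34, against -0.01 over all tested genes. SOCS3, the feedback inhibitor of IL6ST signalling, had 102 and 113 CPM in shRALY and 22.6 and 26.1 CPM in shControl (log2 2.14, SE 0.12; edgeR adjusted p = 2.43e-12). STAT3 had 554.5 and 594 CPM in shRALY and 322 and 362.5 CPM in shControl (log2 0.75, SE 0.10; edgeR adjusted p = 3.47e-06). The third, LBP, which passed the filter through shRALY alone, stood at 1.36 and 1.34 CPM in shRALY and 0.557 and 0.410 CPM in shControl (log2 1.46, SE 0.54; edgeR adjusted p = 0.0339), and 6 of the alternatives, each left-out library among them, left it above an adjusted p of 0.05. The fibrinogen genes FGA and FGB, named after their values were seen, had negative log2 fold changes that did not pass. FGA had 3.75 and 2.20 CPM in shRALY and 5.57 and 4.28 CPM in shControl, with no overlap (log2 -0.72, SE 0.29; edgeR adjusted p = 0.0511), and its adjusted p ranged from 0.0162 without shRALY replicate 1 to 0.471 without shRALY replicate 2. FGB had 0.163 and 0.794 CPM in shRALY and 1.06 and 0.645 CPM in shControl (log2 -0.86, edgeR adjusted p = 0.331), and was at -0.10 and -2.33 without shRALY replicate 1 and 2. CRP, SAA2, A2M and ORM1 had no count in any library, though SAA2 and ORM1 share 22.4% and 47.4% of their 50-base words with other genes and could be undercounted.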

How the data were processed

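RNA from 4 A549 libraries, 2 shRALY and 2 shControl by their titles, was measured as gene counts. The files hold raw counts per Ensembl gene, deposited 1 file per library and not normalised. The submitters' processing notes name HISAT2 2.0.5, featureCounts 1.5.0-p3, DESeq2 1.20.0 and hg38, without roles. Annotation release, strand setting and multi-mapping rule remain not given in the sources used here. All 58735 identifiers matched GENCODE 29 (GRCh38).

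The test was that of edgeR 4.0.16 under R 4.3.3 (filterByExpr with a minimum count of 10 and total of 15, TMM, robust quasi-likelihood F-test, no covariate) over 15912 genes, with Benjamini-Hochberg adjustment over all of them and a threshold of 0.05. A fold is 2 to the power of the fitted log2 fold change, its SE that value divided by the square root of F, and CPM are counts relative to TMM-scaled library totals. Counting intervals are exact binomial intervals. Reads were not collapsed by molecular identifiers, so these cover counting error only. The members and lists were chosen with earlier results of these data known. Named genes were all 10 members, every tested receptor and, of each other list, up to 4 called genes with the smallest adjusted p, or the most abundant to make 2; others are marked. The values of 1 gene that this rule names are not reported here. Promoters came from the RefSeq table (GRCh38.p14), and 3′ UTRs from the longest one among GENCODE 29 basic coding transcripts. Overlap or shared sequence over 20% is stated beside the named genes that have it.

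The fit was tested on simulated counts with known changes, a common spread for all genes and no scarce genes among those changed. There edgeR recovered 20.9% of changes of log2 0.5, 89.6% of log2 1 and 100% of log2 2. Most changes of the smallest size were thus missed, and a gene that did not pass can still differ by that much. Alternatives were DESeq2 1.42.0, RLE factors, library size alone, no filter, at least 10 CPM in 2 libraries, fitting that is not robust, a replicate block, protein-coding genes alone and each library left out.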

Additional observations from a re-analysis of the deposited data

How the results depend on the processing

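The 6 cytokines were called higher under every alternative except the filter of 10 CPM in 2 libraries, which leaves IL6 and IL1A untested and gave 4. No cytokine was called lower except IL18 without shControl replicate 2, so leaving out 1 library gave 0 to 1 lower cytokines. Over all genes, leaving out 1 library gave 2040 to 3559 higher and 1897 to 3499 lower genes, the fewest without an shRALY library. Of the tested cytokines, receptors and inhibitors, 3 not called by edgeR changed sign with the library left out: IL18 was at log2 0.14 and -0.39 without shControl replicate 1 and 2, IL11RA at -0.11 and 0.57 without shRALY replicate 1 and 2, and IL18BP at 0.50 and -0.01 without shRALY replicate 1 and 2. The cause was not tested. Libraries with the same replicate number deviated together weakly (r = 0.0988 across genes), and the labels give no shared origin. With 2 libraries per group this cannot decide whether the numbers pair them. With the replicate number as a block, 6 cytokines were higher and 0 lower, and 3639 genes were higher and 3619 lower in all; IL6R passed (log2 0.38, edgeR adjusted p = 0.0436). Per length, levels were higher by the longest transcript than by the exon union for all genes but LIF and IL1A. Depth sets the precision at low counts: IL1B had 3 to 10 counts per library and IL7 3 to 23.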
